A study of Mus musculus with 12 samples.

Results

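The constant genes of the immunoglobulins were followed in the B cells of 6 mouse mammary tumours: Ighm, Ighd, Ighg1, Ighg3 and Igha, which encode the heavy chains of IgM, IgD, IgG1, IgG3 and IgA, Igkc, which encodes the kappa light chain, and Jchain, which encodes the joining chain of polymeric antibody. These are 7 genes of 18574 genes in the tables of the CD45 libraries and 19369 in those of the Total libraries. They were described in every cell that the submitters' annotation called B and that was not called a doublet, 3174 cells of 111809. The tumours came from 4T1, a triple-negative breast cancer line of the mouse. Clones E, EM1, EM2, EM3 and M, each grown from a single 4T1 cell, and the Parental 4T1 line were grown in the mammary fat pad of female BALB/c mice of 9 to 11 weeks with their own immune system, and 1 tumour was taken per group. The series describes the clones as epithelial, intermediate and mesenchymal. Each tumour gave a Total library and a CD45 library, the latter of leukocytes taken with magnetic beads against CD45, so that 12 libraries were used. With 1 tumour per group, clone, mouse and tumour cannot be told apart, so no test was made between tumours.

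A B cell first transcribes its heavy-chain variable exon together with Ighm and, by splicing, Ighd. Class switching deletes the DNA between and puts a downstream constant gene, such as Ighg1, Ighg3 or Igha, behind the same variable exon, so that a switched cell no longer carries Ighm on that allele. Plasma cells secrete antibody and fill a large part of their messenger RNA with heavy-chain, light-chain and, for IgM and IgA polymers, joining-chain transcripts.

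The heavy-chain genes lie on chromosome 12, minus strand, in GENCODE vM21 on GRCm38, the assembly that mm10 names. Ighm spans chr12:113418558-113422730, followed in the direction of transcription by Ighd (chr12:113406604-113416324), Ighg3 (chr12:113356224-113361232), Ighg1 (chr12:113325240-113330523) and, last, Igha (chr12:113254830-113260236). Igkc, a constant gene with 1 exon, lies on the plus strand at chr6:70726435-70726966, and Jchain on the minus strand at chr5:88519809-88527891. Ighg2b, Ighg2c and Ighe lie between Ighg1 and Igha and were kept beside the members, because IgG genes are close copies of each other. BALB/c mice are known to carry Ighg2a where the C57BL/6 mouse of the reference carries Ighg2c. Ighg2a is not among the 8 heavy-chain constant genes in the tables, so its transcripts have no count of their own here.

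How far the IgG genes differ bears on what an Ighg1 or Ighg3 count means, so the start of their first constant exon is shown, with capitals at 22 of the 60 positions where the 4 genes are not all the same (5′ to 3′ on the minus strand, GRCm38).
Ighg1, chr12:113330464-113330523: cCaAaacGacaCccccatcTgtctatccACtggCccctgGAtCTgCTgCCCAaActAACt
Ighg3, chr12:113361173-113361232: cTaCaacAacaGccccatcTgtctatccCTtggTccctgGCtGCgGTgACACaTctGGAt
Ighg2b, chr12:113307874-113307933: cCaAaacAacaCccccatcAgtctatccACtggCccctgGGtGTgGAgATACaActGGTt
Ighg2c, chr12:113288873-113288932: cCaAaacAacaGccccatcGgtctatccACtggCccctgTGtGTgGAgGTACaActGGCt
Over that whole exon of 291 bases, Ighg1 and Ighg3 were identical at 79.0% of positions and Ighg1 and Ighg2b at 88.3%. Of the 50-base windows of the Ighg1 coding sequence, 0.886% also occurred in that of Ighg3, 0.886% in Ighg2b and 0 in Ighg2c. Only a short stretch of coding Ighg1 is thus shared letter for letter with another IgG gene, and untranslated ends were not compared. Which stretch the counts were read from depends on the library chemistry, which the labels leave unsettled, so these shares do not show how well the counts separate the genes. Ighg2b and Ighg2c shared 5.75% of the windows of Ighg2b.

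The second set of sequences is the end of the secreted heavy chains, shown because Jchain is reported beside them. These are the last 54 coding bases of each secreted transcript, with the next-to-last codon in capitals where it is TGC, the cysteine that bonds to the joining chain.
Ighm, chr12:113420870-113420923: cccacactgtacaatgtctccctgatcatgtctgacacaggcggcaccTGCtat
Igha, chr12:113258771-113258824: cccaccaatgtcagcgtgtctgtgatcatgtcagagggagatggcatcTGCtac
Ighg1, chr12:113328979-113329032: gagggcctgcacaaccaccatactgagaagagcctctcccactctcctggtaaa
Ighg3, chr12:113359668-113359721: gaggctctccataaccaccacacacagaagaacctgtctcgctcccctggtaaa
Ighm and Igha end in this codon and the base triplet of tyrosine, whereas both IgG genes have GGT at that place.

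The label B was checked against 6 marker genes of B cells, among them Cd79a, Cd79b, Ms4a1, Pax5 and Cd22. Their summed level was 3500.5 to 8615 CPM (UMIs of a gene scaled to the same total in every sum of cells, where a UMI marks 1 molecule) in class B of the CD45 libraries and 14.5 to 29.4 CPM in all other cells of those libraries, and all 6 were above 0 in each library. In the Total libraries it was 2044 to 5096 CPM against 10.1 to 30.5 CPM. Class B of the Total libraries also held genes of plasmacytoid dendritic cells (pDC): Siglech, Ccr9, Cox6a2, Pacsin1 and Klk1 summed to 1049 to 5240 CPM there and to 0 to 28.4 CPM in class B of the CD45 libraries. To separate these cells, each cell was assigned by genes that are no members to the list with the most UMIs, at least 3. The B list held 6 genes, among them Ms4a1, Pax5, Cd22, Fcer2a and Cr2, the plasma list Sdc1, Tnfrsf17, Prdm1, Derl3 and Txndc5, and the pDC list the genes above. Cells so assigned are called B-led, plasma-led and pDC-led. The plasma list with Xbp1 added did not separate class B from other cells in the CD45 libraries, at 547.0 to 3251 against 738.6 to 1397 CPM. In the Total libraries it summed to 1670 to 2931 CPM in class B and 994.7 to 1436 CPM in all other cells.

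Class B kept 274, 708, 496, 93, 43 and 225 cells in the CD45 libraries of Clones E, EM1, EM2, EM3, M and Parental 4T1, and 305, 279, 450, 35, 62 and 204 in their Total libraries, the order used for every list of 6 values. A class B cell held a median of 886 to 1488 UMIs in the CD45 and 1070 to 1827 in the Total libraries. Plasma-led cells numbered 26, 100, 14, 1, 0 and 1 in the CD45 and 21, 46, 13, 0, 0 and 10 in the Total libraries. The cell names carry a 16-base barcode, and 14 pairs of libraries shared 818 to 1760 of these where the other 52 pairs shared 46 to 211. Both libraries of Clone E shared barcodes with both of Clone EM3, those of EM1 with those of EM2, and the Total and CD45 libraries of M and of Parental 4T1 with each other. Intervals are exact, at 95%, and cover counting error only, and UMIs of 1 cell are not independent of each other.

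Ighg1, the gene of IgG1, was high in 3 tumours and nearly missing from the other 3. A UMI count is not scaled by transcript length and the capture of each gene is unknown, so levels are compared within a gene, and shares between genes are shares of UMIs. In class B it stood at 52864 CPM (interval 52308 to 53424) in the CD45 library of Clone E, 83994 in EM1 and 20836 in EM2. Clones EM3 and M held 0 Ighg1 UMIs, which allows up to 20.7 and 51.7 CPM at 3 counts, and Parental 4T1 held 1 UMI (4.05 CPM). The Total libraries gave 36471, 85806, 17857, 0, 0 and 102.6 CPM, so that both libraries of a tumour fell on the same side of this gap. Of the tumours whose libraries shared barcodes, EM1 and EM2 both held Ighg1, whereas of Clones E and EM3 only Clone E did. The part of shared barcodes in these levels was not tested. An Ighg1 UMI was found in 23.7%, 38.4% and 7.26% of the class B cells of Clones E, EM1 and EM2 in the CD45 libraries.

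The other switched genes rested on few cells. Ighg3 stood at 6928, 3443, 13.7, 34.5, 0 and 20.3 CPM in the CD45 libraries and at 24.6, 6225, 19.1, 0, 0 and 2.77 CPM in the Total libraries. In the CD45 library of Clone E a single cell held 2259 of the 4531 Ighg3 UMIs, and its Total library had no cell above 5. Igha stood at 19.9, 1972, 41.2, 0, 34.5 and 4.05 CPM in the CD45 and at 231.7, 5742, 1283, 11.6, 0 and 5035 CPM in the Total libraries. A single cell held 2553 of the 2573 Igha UMIs of Clone EM1 in its CD45 library and 3173 of 3185 in its Total library. The Igha level of Parental 4T1 in the Total library likewise came from few cells, since 1.96% of its class B cells had an Igha UMI and 1 of them held 1028 of 1816.

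Ighm and Ighd, the pair of the unswitched B cell, were found in every library. Ighm stood at 6660.4, 3328, 12665, 10998, 12113 and 3809 CPM in the CD45 libraries and 3618, 5579, 8056, 4604, 7332 and 6133 CPM in the Total libraries. In the CD45 libraries, the submitters' subtype Plasma held 2425 of the 4356 Ighm UMIs of Clone E and 5709 of the 7370 of EM2. In their subtype Cd44-MHCIIhi B, Ighm was 4807, 5565, 3222, 8640, 8662 and 3657 CPM, another order of tumours than in class B. An Ighm UMI was present in 79.6% to 96.8% of the class B cells of each CD45 library. Ighd varied less between libraries, at 539.7, 985.7, 1103, 986.05, 1086 and 1195 CPM in the CD45 and 427.6, 787.8, 769.6, 404.8, 594.3 and 579.5 CPM in the Total libraries. The largest count in 1 cell was 14 UMIs for Ighd and 3267 for Ighm.

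Igkc, the kappa light chain, followed the split seen for Ighg1 in part. It stood at 82463, 118399, 54172, 57674, 4963 and 7999 CPM in the CD45 libraries and at 58288, 122447, 26067, 2568, 3774 and 20574 CPM in the Total libraries. The value of Clone EM3 in its CD45 library rested on 1 cell, which held 7474 of 8364 Igkc UMIs and all 312 Jchain UMIs of that library. Jchain stood at 5850, 12005, 4205, 2151, 0 and 0 CPM in the CD45 and at 4633, 12069, 2508, 0, 0 and 1888 CPM in the Total libraries. No Jchain UMI was found in class B of Clone M in either library, which allows up to 51.7 CPM in the CD45 and 22.3 CPM in the Total library. The 7 members together took 15.5%, 22.4%, 9.30%, 7.18%, 1.82% and 1.30% of all class B UMIs in the CD45 libraries and 10.4%, 23.9%, 5.66%, 0.759%, 1.17% and 3.43% in the Total libraries.

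**Figure D1:**
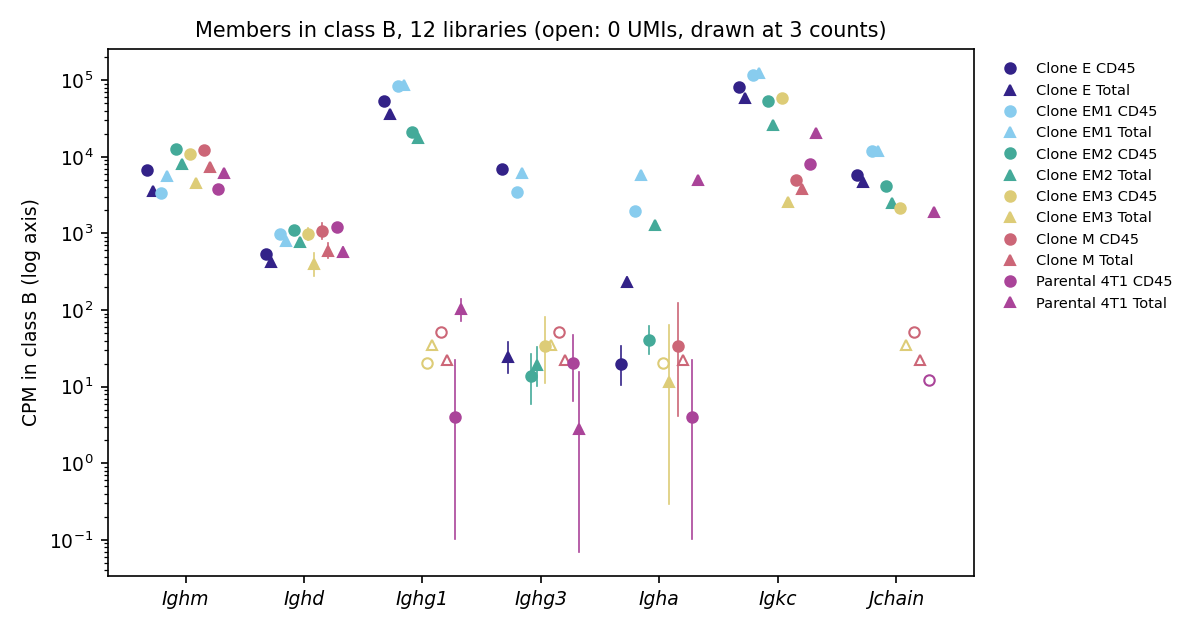
CPM of each member in class B (log axis, exact 95% Poisson intervals as lines) in the 12 libraries, with circles for CD45, triangles for Total and 1 colour per tumour. Open symbols mark 0 UMIs, drawn at the level of 3 counts. Ighm and Ighd are present in every library, whereas Ighg1 lies at 17857 to 85806 CPM in Clones E, EM1 and EM2 and at 0 to 102.6 CPM in the others.

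Against Clone E, the other CD45 libraries were compared by log2 ratios of CPM plus 10, over genes that reached 50 CPM in either library, and a gene was counted past a fold of 2. Igha reached 50 CPM only in the comparison with Clone EM1 and was left out of the other counts. In Clone EM1, 3 of 7 members were past it where 3.3% of 4669 genes were (0.921% higher, 2.38% lower). They were Igha at 6.05, of whose 2573 UMIs 1 cell held 2553, Jchain at 1.04 and Ighg3 at -1.01. In Clone EM2 these were 3 of 6 against a background of 3.26% (1.47% higher, 1.79% lower), with Ighd at 1.02, Ighg1 at -1.34 and Ighg3 at -8.19. Clone EM3 had 3 of 6 past the fold against 12.1% of 5076 genes (7.57% higher, 4.51% lower), all of them lower than in Clone E: Ighg1 at -12.37, Ighg3 at -7.29 and Jchain at -1.44. Ighm and Igkc of that tumour were within the fold, at 0.72 and -0.52. Its Igkc and Jchain values both rested on the 1 cell named above, which held all 312 Jchain UMIs of that library. In the Total library of Clone EM3, where no cell held more than 33 Igkc UMIs, Igkc was 2568 CPM against 58288 CPM in that of Clone E. Clone M had 4 of 6 against 25.1% (17.1% higher, 8.05% lower), all lower, with Ighg1 at -12.37, Ighg3 at -9.44, Jchain at -9.19 and Igkc at -4.05. In Parental 4T1 5 of 6 members were past the fold against 8.75% (5.09% higher, 3.66% lower), with Ighd higher, at 1.13, and Ighm within it, at -0.80. The submitters' subtype Plasma made up 35 of 274 class B cells of Clone E, 19 of 496 of EM2 and 2 of 225 of Parental 4T1. Ighd was 7.46 CPM in the Plasma cells of Clone E. In their subtype Cd44-MHCIIhi B, Ighd was 1088, 1439 and 1282 CPM in these 3 tumours. The part of cell make-up in the Ighd ratios was not tested. Values against a library at 0 depend on the added 10 CPM and are no bounds. In the Total libraries the Ighg3 ratio of Clone EM1 was 7.49, the opposite sign to the CD45 libraries. Clone E held only 24.6 CPM of Ighg3 there, against 19.1, 0, 0 and 2.77 CPM in EM2, EM3, M and Parental 4T1. The large negative Ighg3 ratios of these 4 tumours thus rested on the CD45 library of Clone E, where 1 cell held 2259 of 4531 Ighg3 UMIs. All 5 comparisons share the library of Clone E.

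Of the UMIs of the 5 heavy-chain genes in class B, the switched genes Ighg1, Ighg3 and Igha took 89.6% (interval 89.4% to 89.8%) in Clone E, 94.9% in Clone EM1 and 64.3% in Clone EM2, both libraries summed. The share was 33.7% (32.5% to 35.0%) in Parental 4T1, 0.276% (0.101% to 0.599%) in Clone EM3 and 0.109% (0.0132% to 0.393%) in Clone M. In Clones E, EM1 and EM2 nearly all of it was Ighg1, at 83.4%, 87.3% and 61.9% of heavy-chain UMIs. In Parental 4T1 Igha took 32.9% and Ighg1 0.689%. That Igha share rested on 4 cells of its Total library, and its CD45 library held 1 Igha UMI. The libraries of a tumour were close in Clone E (89.3% in CD45, 90.1% in Total) and Clone EM1 (95.4% and 93.9%), less so in Clone EM2 (60.3% and 68.5%), and far apart in Parental 4T1 (0.564% and 43.4%). Single cells weighed heavily: 1 cell held 16.2% and 21.9% of the heavy-chain UMIs in the CD45 and Total libraries of Clone EM2 and 35.9% in the Total library of Parental 4T1. Without the top cell of each library, the share was 88.2%, 94.7% and 66.2% in Clones E, EM1 and EM2, 0.0486% in EM3 and 47.2% in Parental 4T1. In the Total libraries alone it was then 59.6% in Clone EM2 and 67.7% in Parental 4T1, the reverse of their order with that cell, and 71.9% and 0.499% in the CD45 libraries.

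**Figure D2:**
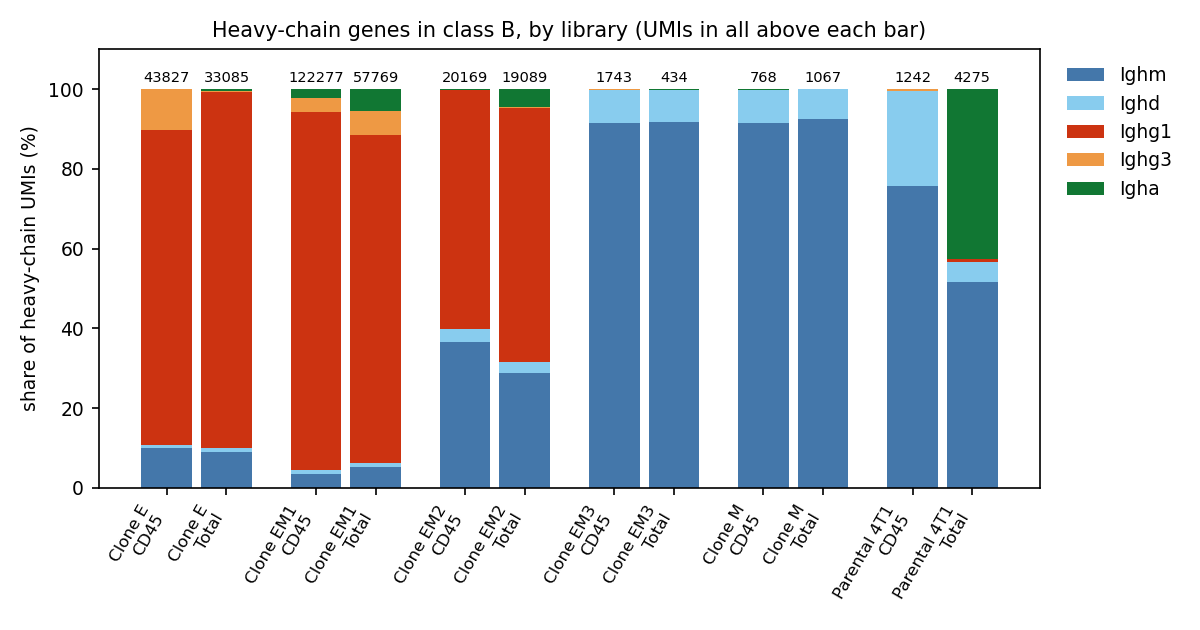
Share of heavy-chain UMIs (y axis, %) taken by each of the 5 heavy-chain members in class B of each library (x axis), with the number of UMIs above each bar. Ighg1 fills most of the bars of Clones E, EM1 and EM2, and Ighm with Ighd fill those of Clones EM3 and M. The Total bar of Parental 4T1 holds 42.5% Igha, whereas its CD45 bar holds 0.0805%.

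Counted by cell, switched cells were a minority in every tumour. A cell with at least 3 heavy-chain UMIs was called by its leading gene, and ties were left out. Switched calls made up 48 of 449 called cells in Clone E (10.7%, interval 7.99% to 13.9%), 115 of 775 in EM1 (14.8%, 12.4% to 17.5%) and 29 of 549 in EM2 (5.28%, 3.57% to 7.50%). They were 4 of 258 in Parental 4T1 (1.55%, 0.424% to 3.92%), 0 of 117 in Clone EM3 (up to 3.10%) and 0 of 97 in Clone M (up to 3.73%). The intervals of Clones E and EM1 do not overlap that of Parental 4T1, with the counting error of 1 tumour each. Thinning cells to 1000 UMIs, which leaves out shallower cells, gave 12.7% in Clone E, 28.2% in EM1 and 10.6% in EM2.

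Split by genes that are no members, switched cells were a larger share of the plasma-led than of the B-led cells. Plasma-led cells held 98 of the 115 switched calls of EM1, and 27 of 48, 15 of 29 and 2 of 4 in Clones E, EM2 and Parental 4T1. Among plasma-led cells, 27 of 35 called cells were switched in Clone E (77.1%), 98 of 113 in EM1 (86.7%), 15 of 23 in EM2 (65.2%) and 2 of 7 in Parental 4T1 (28.6%). Among B-led cells the share was 9.18%, 2.20%, 5.45% and 1.69% in the same tumours, and 0 of 60 in EM3 (up to 5.96%) and 0 of 49 in M (up to 7.25%). Of the 98 switched plasma-led cells of EM1, 86 were called Ighg1, 9 Ighg3 and 3 Igha. The 2 switched plasma-led cells of Parental 4T1 were both Igha, and its 5 others were Ighm. In B-led cells, Ighm led 160, 221, 115, 60, 47 and 49 cells and Ighd 18, 46, 41, 0, 2 and 9.

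Summed UMIs gave the same direction in each of the 4 tumours with at least 5 cells on both sides. The switched share was 23.3% in B-led and 95.3% in plasma-led cells of Clone E, 8.89% and 98.5% in EM1, 9.57% and 71.6% in EM2, and 4.79% and 53.6% in Parental 4T1. The mean difference was 68.1 ± 17.2 percentage points (SD, n = 4), and the exact two-sided sign-flip permutation test gave p = 0.125, the smallest value that 4 tumours allow. The share was higher on the plasma side in 4 of 4 tumours. The 11 plasma-led cells of Parental 4T1 held a median of 2.51% immunoglobulin UMIs, against 43.4%, 49.4% and 52.9% in Clones E, EM1 and EM2.

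**Figure D3:**
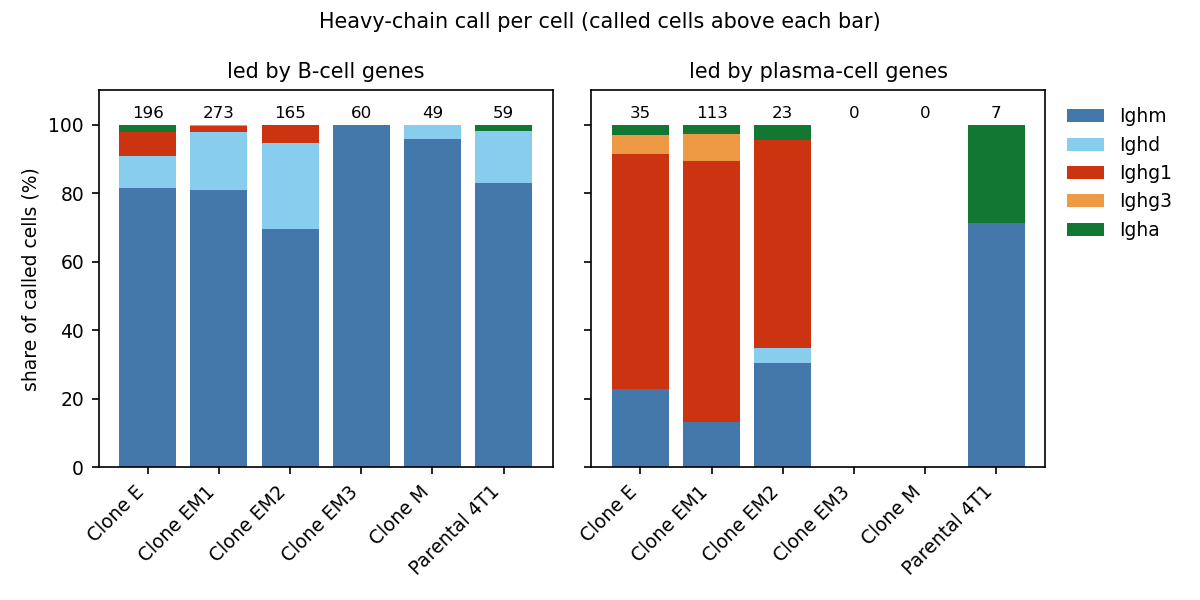
Share of called cells (y axis, %) by leading heavy-chain gene in B-led (left) and plasma-led (right) cells of each tumour (x axis), both libraries together, with the number of called cells above each bar. Switched genes lead at most 9.18% of the B-led cells of a tumour, and Ighg1 leads most plasma-led cells of Clones E, EM1 and EM2. Clones EM3 and M had no called plasma-led cell.

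Of all genes tested between plasma-led and B-led cells, edgeR's quasi-likelihood test on counts summed per tumour and side, with tumour as a block, called 31.7% of 5976 at an adjusted p (Benjamini-Hochberg) under 0.05, 15.4% higher and 16.3% lower in plasma-led cells. All 7 members were called, 6 higher and 1 lower. Jchain stood at 19621, 23902, 22795 and 18016 CPM in the plasma-led cells of Clones E, EM1, EM2 and Parental 4T1 and at 185.4, 98.4, 102.3 and 0 CPM in their B-led cells, a log2 fold change of 8.98 (SE 0.75, edgeR adjusted p = 1.83e-08). Each plasma-led value lay above each B-led value.

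Ighg1, which a cell reaches by switching, stood at 161390, 168343, 131256 and 832.3 CPM against 1211, 617.6, 502.1 and 0 CPM (log2 fold change 8.87, SE 0.93, edgeR adjusted p = 3.30e-07). The B-led levels of Clones E and EM1 lay beside 81.7 and 514.3 CPM in all cells outside class B of the CD45 libraries. Without the few other cells of at least 100 heavy-chain UMIs, these were 36.5 and 119.4 CPM. That limit was not put on the B-led cells, whose values sum both libraries. Single classes of the CD45 libraries differed from the pooled level. Granulocytes of Clones E and EM1 stood at 117.3 and 354.4 CPM (medians of 1081 and 739 UMIs), and NK cells at 57.5 and 318.2 CPM. Whether the B-led levels lie above that background was not tested. An Ighg1 UMI was found in 27.8% of the B-led cells of EM1, both libraries together, at a median of 1042 UMIs, and in 30.8% of the cells outside class B of its CD45 library at a median of 1725 UMIs. With cells thinned to 1000 UMIs, the share in its CD45 library was 28.2% (interval 20.5% to 37.0%) of 124 B-led cells, 125 shallower ones left out, and 24.3% (22.3% to 26.5%) of 1668 T cells, 1357 left out. In its Total library it was 22.0% (11.5% to 36.0%) of 50 B-led cells and 11.2% (9.24% to 13.3%) of 958 T and NK cells, with 21 and 563 left out. The B-led share was the higher one in both libraries, with intervals that overlapped. Igha was 126.2, 6363, 5279 and 48060 CPM against 281.8, 12.3, 3.10 and 206.8 CPM (8.01, SE 1.46, edgeR adjusted p = 2.32e-04), and in Clone E the B-led value was the higher one. The plasma side of this call rested on few cells, with 1, 3, 1 and 2 plasma-led cells called Igha in these tumours. Ighg3 was higher as well (5.48, SE 1.23, edgeR adjusted p = 0.00165), a call that DESeq2 did not make (3.64, adjusted p = 0.125).

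The unswitched genes split. Ighd was 22.4, 37.6, 60.7 and 187.9 CPM in plasma-led cells against 637.4, 2050, 1299 and 1158 CPM in B-led cells, lower in each tumour (log2 fold change -3.73, SE 0.35, edgeR adjusted p = 9.00e-08). Ighm was 8485, 2676, 54115 and 42153 CPM against 4585, 6144, 3856 and 3606 CPM, higher in 3 of 4 tumours and lower in EM1 (2.78, SE 0.77, edgeR adjusted p = 0.00833). The Ighm call ended without Clone EM2 (1.98, edgeR adjusted p = 0.0976) and in the CD45 libraries alone (2.48, edgeR adjusted p = 0.125). A few cells set the plasma-side level of Ighm, with up to 3267 UMIs in 1 cell of EM2 and a median of 0 in Clones E, EM1 and EM2.

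Light chains were called higher on the plasma side, as was each heavy-chain member but Ighd. Igkc was 241936, 230630, 241440 and 164908 CPM in plasma-led cells, against 5720, 6572, 6592 and 6775 CPM in B-led cells (log2 fold change 6.03, SE 0.86, edgeR adjusted p = 1.58e-05). The B-led levels of Igkc were thus within a narrow range over tumours, and EM3 and M, at 5952 and 5787 CPM, fell in it too. The lambda genes Iglc1, Iglc2 and Iglc3 were also called higher, by 3.80, 2.30 and 4.11 on the log2 scale, on counts that single cells dominated. In plasma-led cells of EM1, 1 cell held 1545 of 2670 Iglc1 UMIs, and in those of EM2, 1 cell held 960 of 979 Iglc3 UMIs. In Clone E, Iglc2 was 126.2 CPM in plasma-led and 138.1 CPM in B-led cells. Lambda led over kappa in 2.02%, 1.43%, 1.00%, 11.5%, 9.30% and 1.32% of the B-led cells with a light-chain call. The intervals of Clone EM3 (4.35% to 23.4%, 6 of 52 cells) and Clone M (2.59% to 22.1%, 4 of 43) were wide. That of Clone EM3 overlapped those of Clone E (0.553% to 5.09%) and Parental 4T1 (0.0333% to 7.11%), but not those of EM1 (0.391% to 3.62%) and EM2 (0.121% to 3.57%), with the counting error of 1 tumour each. That of Clone M overlapped all of them.

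Genes of antibody secretion were mostly higher in plasma-led cells too. Of 11 secretion genes outside the gate, all tested, 10 were higher and 1 lower in plasma-led cells, with a median log2 fold change of 4.03 against -0.14 over all genes tested. Xbp1, the transcription factor of the secretory programme, rose by 4.62, Mzb1, a chaperone partner in antibody assembly, by 4.38, the endoplasmic reticulum proteins Hsp90b1 and Edem1 by 3.92 and 3.83, and the signal peptidase subunit Sec11c by 3.60. Irf4, a factor needed for plasma cells, fell by 0.78. Of the 8 tested of 10 B cell receptor and switching genes outside the gate, 1 was higher and 6 lower (median -1.33). Cd79a and Cd79b, the signalling partners of membrane immunoglobulin, fell by 1.53 and 1.12, Bach2, a repressor of the plasma cell programme, by 2.83, Cd40, the receptor for T-cell help, by 3.46, and Cd38 by 1.11. Mki67, a marker of cycling cells, rose by 1.71.

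Fcmr, the receptor for IgM, was 157.5 to 276.7 CPM in class B of the CD45 libraries, against a mean of 0 to 1.43 CPM over libraries in each other class, and fell by 2.39 in plasma-led cells. It was the 1 of 5 tested Fc and immunoglobulin receptor genes that was called, where 31.7% of all genes tested were. The others, Fcer1g, Fcgr2b, Fcgr3 and Fcgr4, had log2 fold changes of 0.36, 0.14, 0.34 and 0.14. Of the 8 ligand genes only Tgfb1, which drives switching to IgA, could be tested, and it fell by 1.81.

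Marker lists of other cell types were measured on both sides of these 4 tumours. The 4 granulocyte markers summed to 1063 to 3378 CPM in B-led and 206.3 to 4940.3 CPM in plasma-led cells, and the 4 macrophage markers to 597.9 to 1514 and 317.0 to 778.6 CPM. Lower on the plasma side, with ranges that did not overlap, were the 4 T-cell markers, at 140.6 to 435.5 against 26.8 to 90.8 CPM, the 2 endothelial markers, at 74.4 to 140.2 against 0 to 18.2 CPM, and the 3 dendritic-cell markers, at 17.02 to 33.1 against 0 to 6.07 CPM. The granulocyte sum was lower in plasma-led cells of Clones E, EM1 and EM2 and higher in those of Parental 4T1, 4940.3 against 1952 CPM. NK markers were at 0 on both sides. The B markers summed to 5623 to 7785 CPM in B-led and 679.6 to 1208 CPM in plasma-led cells, with at least 5 of 6 above 0. Genes such as Ms4a1, Pax5 and Cd22 are also in the B list of the split, so part of this gap was set by the split. The part of cells of other types in these results was not tested.

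High heavy-chain counts were found in few cells, and 1 isotype took most of the count in each. Of 3174 class B cells, 153 held at least 100 heavy-chain UMIs: 31, 98 and 21 in Clones E, EM1 and EM2, 3 in Parental 4T1 and none in EM3 and M. Ighg1 led 128 of them, Ighm 11, Ighg3 8 and Igha 6, and Ighd none. The leading gene took a median of 100% of the cell's heavy-chain UMIs and at least 79.7%. The Ighm-led cells numbered 6 in EM2 and 2 each in Clones E and EM1, with 1 in Parental 4T1. Of these 153 cells 136 were plasma-led, although the gate used no immunoglobulin gene.

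Jchain was found in cells led by Ighg1 and Ighg3 as well as in those led by Ighm and Igha, whose secreted end holds the TGC codon shown above. In the 153 cells chosen by heavy-chain UMIs alone, the median Jchain count was 140.5 in the 128 led by Ighg1, 128.5 in the 8 led by Ighg3, 172 in the 11 led by Ighm and 145 in the 6 led by Igha. The ranges overlapped, at 1 to 349 UMIs for Ighg1, 11 to 284 for Ighg3, 0 to 352 for Ighm and 1 to 427 for Igha. Of the Ighm-led cells 2 had no Jchain UMI, and each of the others led by these 4 genes had at least 1. No cell was led by Ighd, so none bears on IgD.

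A further group of cells was rich in Jchain and Igkc and poor in the 5 heavy-chain members. Of 213 cells with at least 20 Jchain UMIs, 68 held under 100 heavy-chain UMIs, with a median of 0.5, yet a median of 1948 Igkc and 173 Jchain UMIs. Among the 8 heavy-chain genes in the tables, Ighg2c led 46 of the 213, 10 in Clone E and 36 in EM1, with a median of 12 Ighg2c UMIs and at most 48. Whether these UMIs come from Ighg2a transcripts was not tested. Ighg2b led 5, with a median of 29 UMIs, and Ighe led 1, with 946 UMIs, in Clone E. In 4 cells, 3 of EM2 and 1 of EM3, none of the 8 heavy-chain genes had a UMI. With all 8 genes, a setting added after seeing the data, the switched share of called cells in EM1 was 18.7% against 14.8%.

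**Figure D4:**
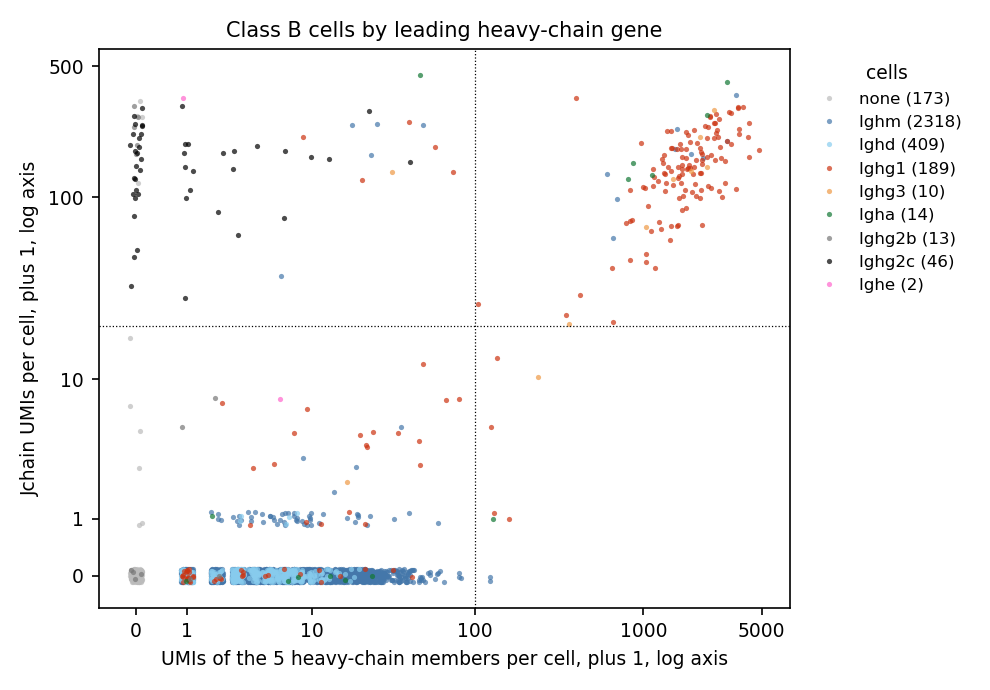
UMIs of the 5 heavy-chain members (x axis) against Jchain UMIs (y axis) in each class B cell, both plus 1 on log axes and slightly jittered, coloured by the leading gene of all 8 heavy-chain genes in the tables. Dotted lines mark 100 heavy-chain and 20 Jchain UMIs. The cells past both lines, at the upper right, are mostly led by Ighg1, and 46 cells led by Ighg2c lie at the upper left.

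Ighd relative to Ighm differed between tumours in the B-led cells. Ighd took 12.2% (interval 11.0% to 13.5%), 25.0% (23.6% to 26.5%), 25.2% (23.1% to 27.4%), 5.56% (4.40% to 6.92%), 9.22% (7.60% to 11.1%) and 24.3% (20.9% to 28.0%) of the summed Ighm and Ighd UMIs. Clones EM1, EM2 and Parental 4T1 did not differ beyond counting error, and Clones E, EM3 and M lay below them. Cells led by none of the lists gave 17.7%, 25.8%, 23.3%, 13.5%, 5.97% and 26.0%, the same split of tumours. Of the tumours whose libraries shared barcodes, Clones E and EM3 were both on the lower side and EM1 and EM2 both on the higher. Depth went with this split in most libraries. On the Total side, B-led cells of Clones E, EM3 and M held medians of 1779, 1799.5 and 1624.5 UMIs. Those of EM1, EM2 and Parental 4T1 held 1154, 1025 and 1363. After the CD45 sort the medians were 1642, 1392 and 1174 against 999, 1003 and 1189, so that Clone M lay beside Parental 4T1. Over all of class B, Clone M was the deeper of these 2 there, at 1196 against 1011 UMIs. The parts of shared barcodes and of depth in this split were not tested. The submitters' subtype Cd25+Cd69+ B, used for the CD45 libraries, had Ighm at 13031 to 20326 CPM in all 6 tumours and Ighd at 437.0 to 677.7 CPM, and it made up 22 of 274, 27 of 708, 17 of 496, 50 of 93, 19 of 43 and 5 of 225 class B cells. Their subtype Cd44-MHCIIhi B had Ighm at 3222 to 8662 CPM and Ighd at 1088 to 2146 CPM.

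Between the libraries of the same tumours, edgeR called 15.1% of 7074 genes in class B (Total against CD45, tumour as block), 9.75% higher and 5.39% lower in Total. Of the 6 members tested, 1 was higher and 1 lower. Ighd was lower in the Total library of each of the 6 tumours (log2 fold change -0.67, SE 0.15, edgeR adjusted p = 0.00309), a call that ended in the fit without the tumour block (adjusted p = 0.0986). Igha was higher (4.00, SE 0.64, edgeR adjusted p = 9.37e-05), in 5 of 6 tumours, with 0 UMIs in the Total library of Clone M, and was called neither by DESeq2 (3.31, adjusted p = 0.119) nor without the block (2.39, edgeR adjusted p = 0.363). Ighm (-0.35), Ighg1 (0.16), Igkc (-0.65) and Jchain (-0.22) were not called, with edgeR adjusted p of 0.463, 0.880, 0.485 and 0.916. Without the cells of at least 100 heavy-chain UMIs, a setting added after seeing the data, Ighm was called lower in Total (-0.67, edgeR adjusted p = 0.00225) and Igha had too few counts to be tested.

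The Total libraries' class B held 207 pDC-led cells and the CD45 libraries' 1. The pDC-led cells carried Ighm at 1066 to 1457 CPM, in 86.1% to 100% of cells per tumour, with Ighd at 0 to 32.6 CPM and Igkc at 37.8 to 616.1 CPM. In B-led cells alone, chosen after seeing the data, 55 of 2519 genes were called. No member with enough counts to be tested was among them, with Ighm at -0.02, Ighd at -0.02 and Igkc at -0.16. Of 13 tested B cell receptor and switching genes, 9 were lower in the Total libraries over all of class B (median -0.75 against -0.02 over all genes), among them Cd79a at -0.81, which was -0.20 and not called in B-led cells. The annotations of the Total and CD45 libraries were made with different class names, so that sort and annotation cannot be told apart.

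Outside class B, Ighg1 was highest in the same 3 tumours as within it, whereas Ighm was not ordered by tumour as in class B. Ighg1 over all other cells of the CD45 libraries was 81.7, 514.3, 9.62, 0.133, 0.298 and 0.336 CPM, with a UMI in 14.8%, 30.8%, 3.45%, 0.0666%, 0.109% and 0.140% of cells. Without cells of at least 100 heavy-chain UMIs, 1 in Clone E and 6 in EM1, the first 2 levels were 36.5 and 119.4 CPM. Ighm over the same other cells was 39.4, 86.4, 189.7, 26.6, 30.1 and 27.6 CPM, and Clone EM2 stood at 68.3 CPM without its 1 cell of at least 100 heavy-chain UMIs. Clone EM1, the lowest in class B of the CD45 libraries, was thus above the 4 tumours other than EM2 outside it, and above EM2 too without that cell (85.8 CPM). In class B of the Total libraries Clone E was the lowest, at 3618 CPM against 5579 CPM in EM1. In natural killer (NK) cells, which make no antibody, Ighg1 was 57.5, 318.2 and 26.1 CPM in Clones E, EM1 and EM2 and 0 in the other 3. The EM2 value rested on 4 UMIs, so that the zeros do not separate those 3 tumours from EM2. T cells had Ighm at 46.1 to 109.4 CPM in the CD45 libraries against 3328 CPM or more in class B, and NK cells at 109.3 to 189.4 CPM. By the calling rule used for class B, 0.471% to 5.27% of the cells outside it were called, with Ighm the most frequent call in each library. In the CD45 library of Clone EM1, 271 of 448 such calls were Ighm and 172 Ighg1, among 8498 cells. Of the 249 B-led cells of that library 3 were called Ighg1, and whether these lie above that background was not tested. In Clone E, Ighg1 calls outside class B numbered 40 of 216 in the CD45 and 38 of 143 in the Total library.

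Igha was patterned differently outside class B. In NK cells it was 115.1, 13.0, 71.9, 71.7, 134.3 and 51.5 CPM, against 1.08 to 5.54 CPM in T cells and at most 0.773 CPM in macrophages. The NK values rested on 20, 2, 11, 9, 13 and 3 UMIs. In class B of the same libraries Igha rested on 13, 2573, 24, 0, 2 and 1 UMIs, and the difference between NK cells and class B was not tested.

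**Figure D5:**
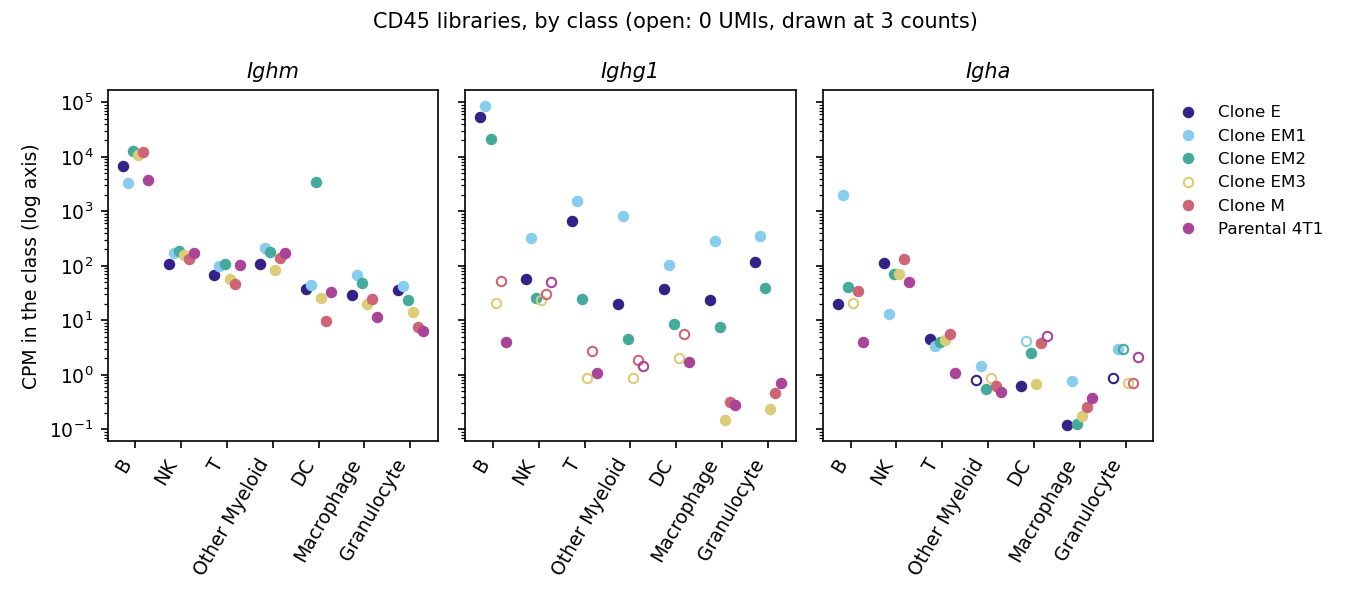
CPM of Ighm, Ighg1 and Igha (log axis) in each class of the CD45 libraries (x axis), 1 point per tumour, with open points for 0 UMIs drawn at the level of 3 counts. Ighm and, in Clones E, EM1 and EM2, Ighg1 peak in class B. The high Ighm point among DC, 3398 CPM, comes from Clone EM2, where 1 cell held 3927 of 3996 UMIs, and Igha is 13.0 to 134.3 CPM in NK cells.

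The genes most like Ighm over the class B of the 12 libraries, by Pearson's r of log2(CPM plus 10) among 7096 genes, were Sesn1 (r = 0.86), Zc3h7b (0.85) and Ptcd3 (0.82). For Ighd they were Add3 (0.91), Scd1 (0.89) and Zmynd11 (0.86), and for Jchain, after a feature that the tables mark as deprecated (0.91), St14 and Ddt (both 0.90). These correlations describe 12 libraries of 6 tumours, which share tumours, barcodes and depth. They were the highest of all genes searched and carry no test.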

How the data were processed

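The authors deposited UMI counts per gene and cell for 12 libraries, with a metadata table of their annotation per cell, and the UMI totals in that table equal the sums of the counts in every cell. Reads were processed with Cell Ranger on mm10, per the submitters' processing notes, and its version is not given in the sources used here. The labels' protocols name both a fixed-RNA preparation kit and a 3′ reagent kit, so the chemistry is not settled. Percent and fraction columns of mitochondrial UMIs and a complexity score that the authors deposited per cell were not used. Libraries held 28083101 to 122055131 UMIs over 6709 to 13467 cells.

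Doublet scores were computed per library with Scrublet (scanpy 1.11.5, 2 simulated doublets per cell, expected rate 0.06, 30 components). Cells above 1 limit for all libraries, 0.222, were called doublets. It is the median of the libraries' own limits, which ranged from 0.197 to 0.566. Doublets were left out, 3803 of 115612 cells and 55 of 3229 B cells. Counts were summed per library and class, or per tumour and side, and given as CPM of the summed cells. Across all genes, edgeR 4.0.16 (TMM, filterByExpr, quasi-likelihood test, tumour as a block, Benjamini-Hochberg over all genes tested) was run, with DESeq2 1.42.0 as an alternative. The block is the tumour, from which both sums of a pair came. Each SE beside an edgeR fold change was derived from the test, as the absolute log2 fold change divided by the square root of F. On simulated data with 200 changed genes, the plasma-led comparison recovered 44% of changes of 2-fold and 90% of 4-fold with 10 false calls over 5976 genes, and the Total comparison 83% and 99% with 8 false calls over 7074 genes. Intervals are Clopper-Pearson for shares and exact Poisson for counts.

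All 7 members are named in every library. Of each gene list at most 6 genes are named with values, those with the highest mean CPM in class B of the CD45 libraries, gate genes left out. Some genes of the lists enter the sums and counts but are not reported here. Members, lists and tests were chosen with earlier results of these data known. Class names come from the authors' annotation, which differs between Total and CD45 libraries. Sequences come from the GRCm38 genome with GENCODE vM21.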

Additional observations from a re-analysis of the deposited data

Results flagged for a closer look

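Heavy-chain genes outside the 5 members gave UMIs in class B. Ighg2c, a close copy of the other IgG genes, had 341 UMIs in Clone E and 557 in Clone EM1, both libraries summed, and 0 in the other 4 tumours. Ighg2b had 90 UMIs in Clone E, 157 in EM1, 31 in EM2 and 43 in Parental 4T1, and 0 in EM3 and M. Ighe, the gene of IgE, had 952 UMIs in Clone E, of which 1 cell of the Total library held 946, and 8 UMIs, all in 1 cell, in Parental 4T1.

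Cells outside class B also held antibody transcripts. At least 100 heavy-chain UMIs were found in 13 cells of other classes that were not called doublets, and in 5 that were. Of the 13, 8 came from Clone EM1, 4 from Clone E and 1 from Clone EM2, and 12 were led by Ighg1. The cell of Clone EM2, annotated as a dendritic cell, held 3927 Ighm, 2921 Igkc and 488 Jchain UMIs.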

How the results depend on the processing

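The switched share of heavy-chain UMIs in Clones E, EM1, EM2 and Parental 4T1 became 13.2%, 18.4%, 5.70% and 1.68% as a mean over cells, 91.6%, 96.6%, 68.2% and 46.2% in B-led and plasma-led cells only, and 88.2%, 94.7%, 66.2% and 47.2% without the top cell of each library (0.0486% in Clone EM3). With doublets kept it was 94.8% in EM1. The mean over cells lies below the sum because few cells hold most heavy-chain UMIs. The switched share of called cells was 18.7%, 30.1%, 17.5% and 5.17% in Clones E, EM1, EM2 and Parental 4T1 at 10 or more heavy-chain UMIs. Thinned to 500 UMIs it was 15.2%, 19.1% and 8.31% in Clones E, EM1 and EM2, thinned to 1000 UMIs 28.2% in EM1 and 10.6% in EM2, and with all 8 heavy-chain genes 18.7% in EM1. With both libraries summed, Clones E, EM1 and EM2 stayed above Parental 4T1, and EM3 and M at or near 0, in each of these settings. In the Total libraries alone, without the top cell, Parental 4T1 (67.7%, 43.4% with it) lay above Clone EM2 (59.6%).

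Between Total and CD45 libraries, 1071 genes were called, 1845 without the filter on low counts, 55 in B-led cells alone and 611 to 1007 leaving out 1 tumour, lowest without Clone EM2. In the fit without the replicate block 540 were called, and neither Ighd (adjusted p = 0.0986) nor Igha (2.39, adjusted p = 0.363) was. Ighg1 was -0.13 in that fit and -0.25 without Parental 4T1, against 0.16, and Jchain ranged from -1.06 without Parental 4T1 to 0.53 without Clone EM3, against -0.22, none of them called. DESeq2 called 737. Between plasma-led and B-led cells, 1896 genes were called, 1238 with DESeq2 and 998 to 2007 leaving out 1 tumour, lowest without Clone EM1. Without the replicate block 1979 were called, with no member's call changed. The median log2 fold change of all genes, -0.14, was -0.04 with library sizes that leave out immunoglobulin genes, and each member kept its direction there. The mean difference in switched share was 59.3 to 74.6 points over all settings.

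In the Total libraries 5 members of Clone EM1 were past a fold of 2 against Clone E (3 in CD45). All 7 members reached 50 CPM in that library of EM1. The share of all genes past the fold in the Total libraries is not given here, so this count has no background to be read against. The Ighg3 ratio of EM1 was 7.49 there (-1.01 in CD45). The Igha ratio of Parental 4T1 was 4.38 (-1.09 in CD45, from 1 and 13 UMIs, which does not show a difference). Ighg1 outside class B was 56.4, 378.4 and 11.2 CPM in Clones E, EM1 and EM2 without cells that pass the plasma or B gate. That setting kept 6602 of 10216, 7176 of 8498 and 6281 of 8370 cells, so that it left out many cells of the other classes. Without cells of at least 100 heavy-chain UMIs, Ighg1 outside class B was 36.5 and 119.4 CPM in Clones E and EM1. Where not given otherwise, the cause was not tested.

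Clones EM3 and M, with 128 and 105 class B cells, bound switched shares of called cells only to 3.10% and 3.73%, and to 5.96% and 7.25% in B-led cells, which leave out the 12 and 14 pDC-led cells and those led by no list. With 1 tumour per group there is no error between animals.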
